A study of Tupaia belangeri with 6 samples.

Results

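The 7 genes described here are the IgLON genes LSAMP, NEGR1, OPCML, NTM and IGLON5 and the related genes MDGA1 and MDGA2. They were chosen by symbol alone, and each symbol belonged to 1 of the 83605 features that were counted, so that 7 of 83605 features are described. The features carry the TreeshrewDB identifiers TSDBGID.3517 (LSAMP), TSDBGID.24550 (NEGR1), TSDBGID.5556 (OPCML), TSDBGID.1191 (NTM), TSDBGID.991 (IGLON5), TSDBGID.20595 (MDGA1) and TSDBGID.21950 (MDGA2). The count files give no positions, and the build behind them is not named. In the RefSeq annotation of the tree shrew assembly TupChi_1.0, which held 6 of the 7 symbols (MDGA2 was not matched), OPCML and NTM were neighbours with 1 other entry between them.

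IgLON proteins are cell adhesion molecules with immunoglobulin domains that are tied to the outer leaflet of the membrane by a glycosylphosphatidylinositol (GPI) anchor. They bind each other within and between cells, and they take part in neurite growth, synapse formation and myelination. MDGA proteins are GPI-anchored as well and bind neuroligins on the postsynaptic side, where they block the contact of neuroligins with presynaptic neurexins.

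RNA was counted in nuclei isolated from the frozen hippocampus of naturally aged tree shrews (TSs) with the 3′ chemistry of 10× Genomics. Each animal gave 1 library, 3 from TSs with Alzheimer's-like pathology (ALP TSs, labelled AD) and 3 from control TSs (labelled Normal). The ALP TSs were picked by their poor maze performance in a cohort of ageing animals, and the controls were healthy TSs of matched age. No transgene, drug or lesion was used in either group, and the sex of the animals is not given per library. Fewer transcripts per nucleus and fewer nuclei of a subtype cannot be told apart in sums over a class.

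The 6 libraries held 19182981 to 35898940 UMIs (unique molecular identifiers, 1 per captured RNA molecule). After the filter that the study states (200 to 2500 genes and at most 5% mitochondrial UMIs), 28233 nuclei with a median of 1502.5 to 2187.5 UMIs per library remained, and 15.96% to 46.4% of barcodes lay over the upper limit on genes. Libraries shared at most 0.465% of their barcodes. Nuclei were clustered without the 7 genes and without features named after them, and 26709 nuclei fell into 11 classes. All but 1 were named from marker genes. These were Oligo-like (mature oligodendrocytes), OPC-like (their precursors), Astro-like, Micro-like, Endo-like, Mural and fibroblast-like and Ependymal-like nuclei. Of neurons there were Gran-like (dentate granule neurons), Pyra-like (pyramidal neurons) and InN-like nuclei (interneurons). The last class, of shallow excitatory nuclei, met the marker rules for pyramidal and for excitatory neurons. It was kept apart for a depth under 0.5 of the library median, a limit set after seeing the data. Its 1874 nuclei had a median of 711 UMIs, and 61.7% of them were from Control 3. The remaining nuclei formed clusters of low depth or without a clear name, and a cluster of 332 other excitatory nuclei (median 3318 UMIs). That cluster held as few as 8 nuclei in a library and is not among the 11 classes. Control 1, Control 2 and ALP 2 held 1489 to 2316 UMIs of Y-linked features, and the other 3 libraries held 1 to 20.

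Transcripts of the family were unevenly supplied. In kept nuclei NEGR1 had 107011 UMIs, LSAMP 106728, MDGA2 59370, OPCML 31065 and NTM 8283. MDGA1, with 524 UMIs, and IGLON5, with 61, were at the limit of detection, so that little can be read from them. Levels are given in CPM, the UMIs of a gene scaled to a fixed total of all UMIs in a class and library, as the mean ± SD of 6 libraries, and are compared for 1 gene between classes, not between genes, because gene lengths were not used.

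LSAMP, which encodes the limbic system-associated membrane protein, was highest in Astro-like nuclei and next in OPC-like nuclei. In Astro-like nuclei its level was 5551, 4251 and 4564 CPM in Control 1, 2 and 3 and 4005, 4263 and 3697 CPM in ALP 1, 2 and 3. In OPC-like nuclei it was 2967, 2782 and 2703 CPM in the controls and 2472, 2855 and 2558 CPM in ALP TSs. The Astro-like level was the higher in every library, by 0.68 ± 0.14 on the log2 scale (SD, n = 6). Neurons came next, with 1700 ± 375 CPM in Pyra-like, 1552 ± 104 in InN-like and 1506 ± 287 in shallow excitatory nuclei, and these 3 did not differ beyond their spread. Gran-like nuclei (907 ± 182 CPM) and Oligo-like nuclei (867 ± 297 CPM) were close to each other as well, and Micro-like (571 ± 109) and Endo-like nuclei (563 ± 206) were at the low end.

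NEGR1, the neuronal growth regulator, had a neuronal order instead. Gran-like nuclei held 4687, 2557 and 3170 CPM in Control 1, 2 and 3 and 2666, 2510 and 2760 CPM in ALP 1, 2 and 3. They were above InN-like nuclei (2208 ± 648 CPM) in 5 of 6 libraries, by 0.49 ± 0.51 on the log2 scale. Shallow excitatory (2010 ± 319) and Pyra-like nuclei (1830 ± 702 CPM) followed without a clear step. The cluster of other excitatory nuclei, which is not among the 11 classes, held 3232 ± 817 CPM, close to the Gran-like mean of 3058 ± 832 CPM. Glia still carried the transcript, with 1376 ± 177 CPM in Astro-like and 1207 ± 110 CPM in OPC-like nuclei, and Endo-like nuclei were among the lowest (461 ± 208 CPM).

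OPCML, the opioid-binding cell adhesion molecule-like gene, was a gene of excitatory neurons in these nuclei and was almost absent from astrocytes. Pyra-like nuclei held 1509, 1080 and 1376 CPM in Control 1, 2 and 3 and 1329, 1245 and 1297 CPM in ALP 1, 2 and 3, and shallow excitatory nuclei 1169 ± 294 CPM. Neighbours in this order were close. The next step, from shallow excitatory to Gran-like nuclei (576 ± 94.6 CPM), was seen in 6 of 6 libraries and amounted to 1.00 ± 0.36 on the log2 scale. OPC-like nuclei (526 ± 69.9 CPM) lay beside Gran-like nuclei and above InN-like nuclei (369 ± 88.6 CPM) in 5 of 6 libraries. Astro-like and Oligo-like nuclei held only 44.2 ± 14.9 and 48.4 ± 12.7 CPM, against which the Pyra-like level was higher by 4.91 ± 0.50 and 4.76 ± 0.46 on the log2 scale.

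NTM, which encodes neurotrimin and is the neighbour of OPCML in the annotation, was ordered differently from it. OPC-like nuclei held 309, 248 and 368 CPM in Control 1, 2 and 3 and 267, 308 and 297 CPM in ALP 1, 2 and 3, and Astro-like nuclei 294 ± 32.0 CPM. The OPC-like level was the higher in 2 of 6 libraries, so that these classes did not differ beyond their spread (log2 difference 0.02 ± 0.23). InN-like nuclei (218 ± 37.6 CPM) were above Pyra-like nuclei (130 ± 38.4 CPM) in 6 of 6 libraries. Gran-like and Oligo-like nuclei had the lowest means for NTM, with 12.3 ± 3.35 and 11.9 ± 5.17 CPM. Gran-like nuclei nonetheless held the highest NEGR1 level of the 11 classes. Astro-like and Gran-like nuclei thus had opposite places for OPCML and NTM.

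MDGA2 was highest in OPC-like nuclei, with 1895, 1536 and 1509 CPM in Control 1, 2 and 3 and 1475, 1578 and 1400 CPM in ALP 1, 2 and 3. That level was above that of Pyra-like nuclei (1164 ± 311 CPM) in 6 of 6 libraries, by 0.46 ± 0.24 on the log2 scale. Pyra-like, Astro-like (1120 ± 313) and InN-like nuclei (1032 ± 169 CPM) did not differ beyond their spread. Oligo-like nuclei held 634 ± 313 CPM. Vascular classes were lowest, with 203 ± 68.9 CPM in Endo-like and 129 ± 158 CPM in Mural and fibroblast-like nuclei.

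MDGA1 was spread thinly, and 186 of its UMIs were in Pyra-like (17.8 ± 7.05 CPM) and 101 in Gran-like nuclei (13.1 ± 4.05 CPM), which did not differ beyond their spread. IGLON5 had 20 UMIs in InN-like, 17 in Pyra-like and 12 in Gran-like nuclei, 4 in OPC-like nuclei, 2 in Oligo-like nuclei and 1 in Astro-like nuclei. No IGLON5 UMI was found in Micro-like, Endo-like, Mural and fibroblast-like, Ependymal-like or shallow excitatory nuclei, which at 3 counts allows up to 1.19, 3.92, 9.16, 6.99 and 1.81 CPM. These limits cover counting error only.

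**Figure D1:**
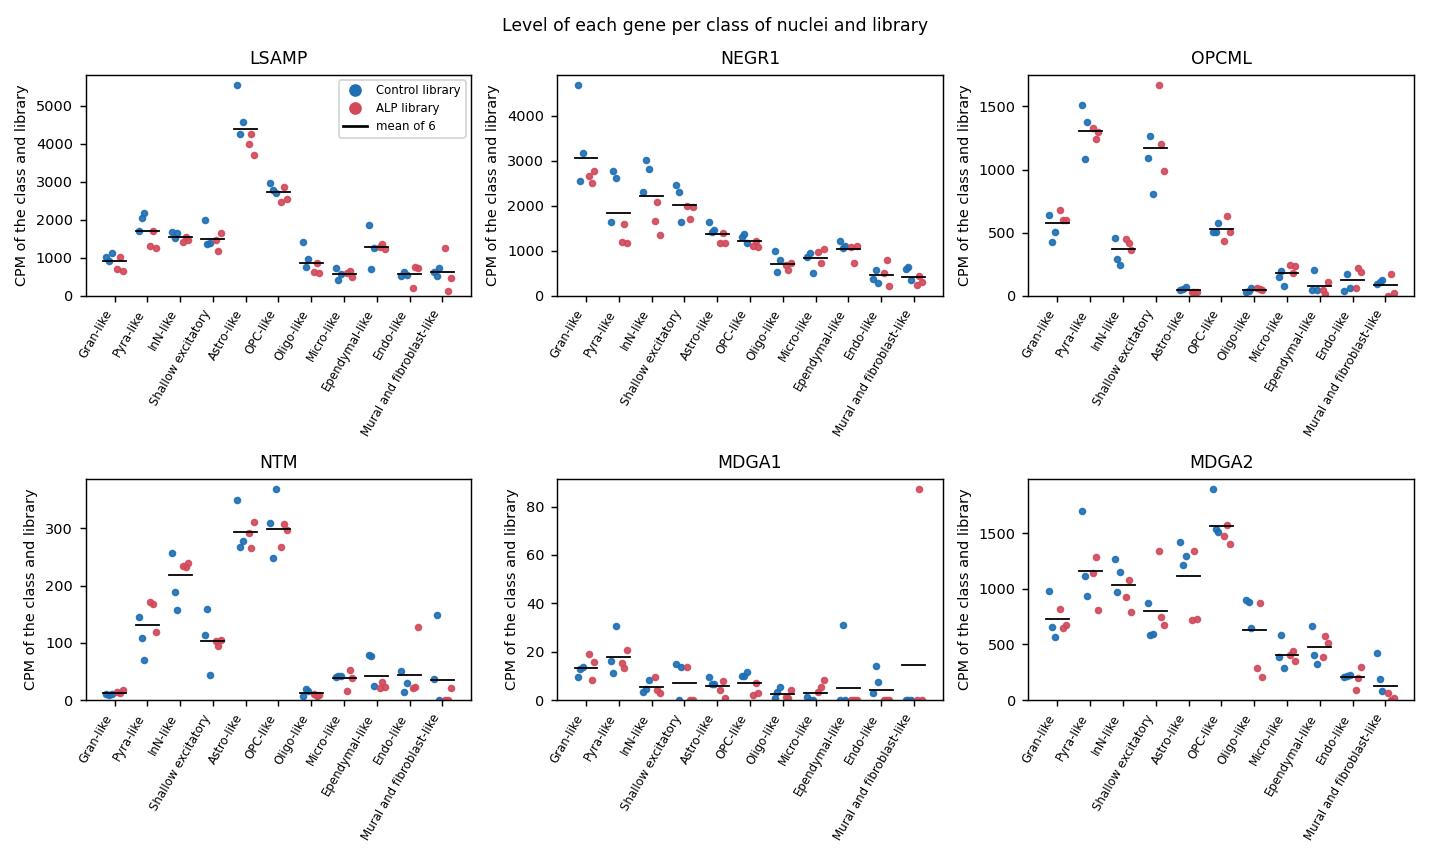
Level of 6 of the 7 genes (y axis, CPM, linear scale from 0) in 11 classes of nuclei (x axis), with 1 point per library in blue for control and red for ALP, and a bar for the mean of 6 libraries. LSAMP peaks in Astro-like nuclei (4388 CPM), NEGR1 in Gran-like (3058 CPM), OPCML in Pyra-like (1306 CPM), and NTM (299 CPM) and MDGA2 (1565 CPM) in OPC-like nuclei.

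The order of classes was tested between neighbours for the 6 genes other than IGLON5, in 60 pairs, by the two-sided exact sign-flip permutation test over 6 libraries. No pair passed after adjustment, because the smallest possible p of 0.03125, reached by 12 pairs, becomes 0.156 when adjusted over 60 pairs. The pairs that reached it include Astro-like over OPC-like and OPC-like over Pyra-like nuclei for LSAMP, shallow excitatory over Gran-like nuclei for OPCML, Astro-like over InN-like and InN-like over Pyra-like nuclei for NTM, and OPC-like over Pyra-like nuclei for MDGA2. As a count of libraries, LSAMP in Astro-like nuclei and MDGA2 in OPC-like nuclei were above each of the 10 other classes in 6 of 6 libraries. With TMM-scaled values (trimmed mean of M-values) Astro-like nuclei took the first place for NTM from OPC-like nuclei (log2 difference -0.067).

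The same patterns were seen in the share of nuclei with at least 1 UMI, computed for nuclei thinned to 1000 UMIs so that depth does not set the share. LSAMP was expected in 97.2% ± 0.95 of Astro-like nuclei and 90.5% ± 1.40 of OPC-like nuclei but in 31.4% ± 6.78 of Micro-like nuclei. NEGR1 reached 89.9% ± 2.80 of Gran-like nuclei and 24.6% ± 5.81 of Endo-like nuclei. OPCML reached 63.5% ± 4.83 of Pyra-like nuclei and 4.08% ± 1.28 of Astro-like nuclei. Free RNA adds UMIs to all droplets, and the lowest class sets a ceiling for it. No profile of empty droplets was computed. A share near 4% for OPCML, or near 1% for NTM in Oligo-like (0.972% ± 0.272) and Gran-like nuclei (1.13% ± 0.283), therefore cannot be told apart from background. NTM in 25.6% ± 3.27 of OPC-like, 23.8% ± 2.48 of Astro-like and 18.9% ± 2.82 of InN-like nuclei was well above its lowest shares.

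Without thinning the share of nuclei with LSAMP was 98.2% in Astro-like and 30.1% in Micro-like nuclei, with medians of 1878.5 and 1105 UMIs per nucleus. Unthinned shares for OPCML were 88.5% in Pyra-like nuclei, at a median of 4507.5 UMIs, and 7.32% in Astro-like nuclei. MDGA2 was expected in 75.9% ± 3.22 of OPC-like and 6.45% ± 5.55 of Mural and fibroblast-like nuclei after thinning, and OPC-like nuclei were also those that most often held several members. At 1000 UMIs 3 or more of the 7 genes were found in 70.5% ± 2.70 of OPC-like, 63.0% ± 5.45 of Pyra-like, 54.2% ± 8.10 of Astro-like and 6.18% ± 3.51 of Oligo-like nuclei. None of the 7 was found in 56.4% ± 9.42 of Endo-like nuclei and in 0.708% ± 0.518 of OPC-like nuclei.

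**Figure D2:**
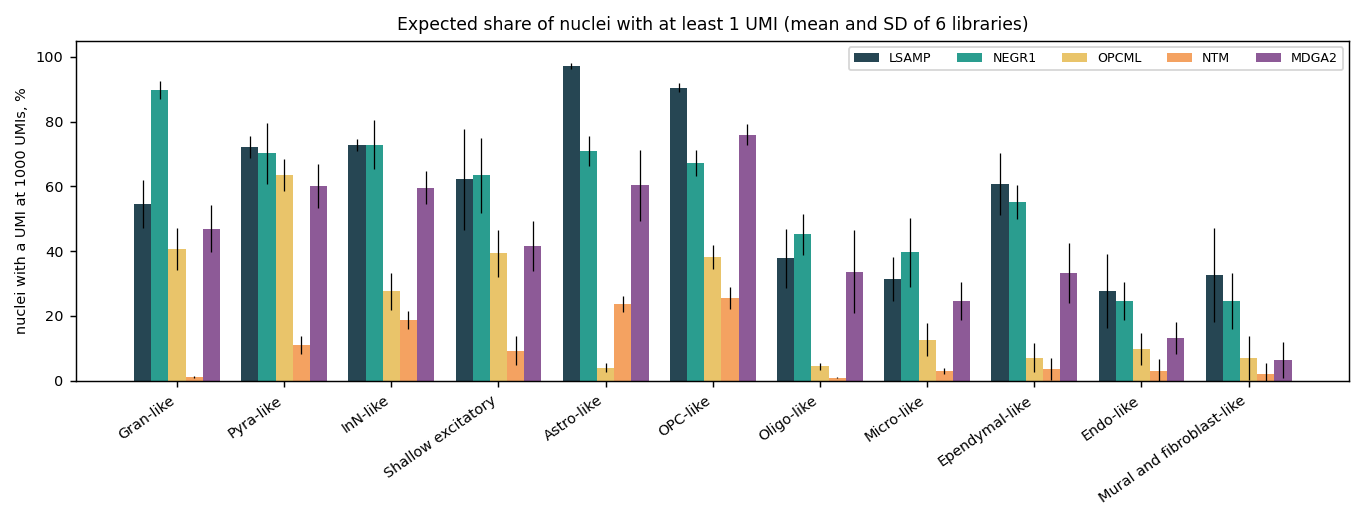
Expected share of nuclei with at least 1 UMI (y axis, percent) after thinning to 1000 UMIs, for 5 genes in 11 classes (x axis), as bars for the mean and lines for the SD of 6 libraries. LSAMP is near 97.2% in Astro-like nuclei, NEGR1 near 89.9% in Gran-like nuclei and OPCML near 63.5% in Pyra-like nuclei, while OPCML stays near 4.08% in Astro-like nuclei.

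Within classes the levels also differed between clusters. Among InN-like nuclei NEGR1 ranged from 739 CPM in the cluster led by KIT and LAMP5 (markers of neurogliaform-type interneurons) to 2931 CPM in the cluster led by VIP and CALB2. OPCML ranged from 124 CPM in the cluster led by CNR1, the cannabinoid receptor gene, to 580 CPM in the cluster led by ANO1 and TLL1, and MDGA2 from 495 CPM in the same CNR1 cluster to 1631 CPM in the VIP and CALB2 cluster. The CNR1 cluster was thus the lowest of 6 interneuron clusters for OPCML and MDGA2 but not for LSAMP (1830 CPM) or NEGR1 (1920 CPM). Among Pyra-like nuclei MDGA2 ranged from 698 CPM to 2303 CPM in the cluster led by COL8A1 and COL21A1, whereas that cluster was the lowest of 6 for NEGR1 (1023 CPM).

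A small OPC-like cluster of 52 nuclei, led by ENPP6, TNS1 and a BCAS1-like feature, stood apart. Marked doublets made up 13.5% of it, against 5.77% of the main OPC-like cluster, and it met the marker rule for both Oligo and OPC. ENPP6 and BCAS1 are known from precursors that are turning into myelinating oligodendrocytes. In the 3 libraries with at least 10 of its nuclei, LSAMP was 6433 (Control 1), 7368 (Control 3) and 6861 CPM (ALP 2), against 2902, 2535 and 2718 CPM in the main OPC-like cluster of the same libraries. NEGR1 went the other way, with 536, 496 and 280 CPM against 1308, 1202 and 1248 CPM. The ranges of the clusters did not overlap for either gene, and in mature Oligo-like clusters the mean LSAMP level was 411 to 1364 CPM. Among Astro-like nuclei the cluster led by GFAP (222 nuclei) held 2855 ± 562 CPM of LSAMP and the other cluster 4492 ± 653 CPM. No test was made between clusters, because clusters were built from the same nuclei.

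Micro-like nuclei formed 2 clusters as well. The cluster led by CLEC6A and GPNMB (172 nuclei, median 3688 UMIs) held 2122 ± 809 CPM of NEGR1 and 413 ± 170 CPM of OPCML over 5 libraries. The other cluster (1441 nuclei, median 1040 UMIs) held 371 ± 43.7 and 73.2 ± 15.5 CPM over 6 libraries. The GPNMB cluster met the marker rule for both Micro and Gran. Marked doublets made up 8.14% of it, against 4.93% of the other cluster. The GPNMB cluster also carried more transcripts of 6 neuron markers (SNAP25, SYT1, RBFOX3, SLC17A7, CAMK2A and GAD1), at 2159 CPM in sum against 797 CPM. The part of these neuronal transcripts in the NEGR1 and OPCML levels was not tested. Without the upper limit on genes the Micro-like NEGR1 level was 335 ± 209 CPM. In that setting the cluster led by CX021 and GPNMB (1226 nuclei, 24.6% marked doublets) stayed unnamed, and 1169 nuclei were Micro-like.

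Levels of members followed each other loosely over the 66 sums of 11 classes and 6 libraries. The Pearson r of log2(CPM + 1) was highest for LSAMP with MDGA2 (0.73), LSAMP with NTM (0.67) and NTM with MDGA2 (0.67), and lowest for LSAMP with OPCML (0.12). Among 7870 genes with a mean of at least 10 CPM, the genes most like LSAMP were CTNND2 (r = 0.85), RALYL (0.84) and DCLK2 (0.81), those like NEGR1 included RNF112 and CSMD1 (0.79 each), and those most like OPCML were ERC2 (0.90), STXBP5L (0.89) and KCND2 (0.89). NTM was nearest to BRINP3 (0.82), CDH10 (0.81) and CTNND2 (0.80), MDGA2 to RALYL (0.88), DOP1A (0.84) and LRRTM4 (0.80), and MDGA1 to FBXL16 (0.63), UBE2QL1 (0.61) and CRMP1 (0.61). These values describe classes that share libraries and depth, and carry no test.

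The question of the study was what differs in ALP TSs, and for the 7 genes the comparison of UMI sums per library and class gave no call in any class. Of 51 gene and class pairs that could be tested, 0 passed edgeR's quasi-likelihood test (adjusted p under 0.05 and log2 fold change beyond 0.25) and 0 passed with DESeq2, while 7 pairs had an unadjusted p under 0.05 with each tool. That is 13.7% of the pairs. Over all features tested the percentage called was 4.75 in Oligo-like, 1.65 in OPC-like, 1.25 in Gran-like, 0.566 in Micro-like and 0.138 in Astro-like nuclei and 0.0 in the other 6 classes. DESeq2 called 470 features in InN-like, 221 in Pyra-like, 216 in Astro-like and 31 in Micro-like nuclei, and edgeR called 501 in InN-like nuclei without Control 1, in place of 0, but no member in these classes was among the DESeq2 calls. The percentage of all features at an unadjusted p under 0.05 was 19.6 in InN-like and 15.8 in Pyra-like nuclei, where 5 of the 7 pairs lay, 17.1 in Astro-like and 14.3 in Micro-like nuclei, where the other pairs lay, and 17.9 in Gran-like, 21.6 in Oligo-like, 15.4 in OPC-like, 7.38 in shallow excitatory, 6.08 in Ependymal-like, 5.83 in Endo-like and 2.0 in Mural and fibroblast-like nuclei. Over all classes together 1.14 percent were called and 16.8 percent had an unadjusted p under 0.05, so that the share of the members was no larger than that of all features. IGLON5 had too few UMIs for a test in any class, and MDGA1 was tested in Gran-like and Pyra-like nuclei only.

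Directions over the classes differed between genes, although no pair passed. NEGR1 was lower in ALP TSs in 9 of 11 classes (median log2 fold change -0.16), LSAMP in 7 of 11 (-0.09) and MDGA2 in 6 of 10 (-0.05). OPCML was higher in 8 of 9 classes (0.32) and NTM in 5 of 8 (0.21). The median over all features lay between -0.03 and 0.02 in every class. For the 5 or 6 members tested per class the median was -0.39 in Oligo-like, 0.17 in Gran-like and 0.03 in InN-like nuclei.

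**Figure D3:**
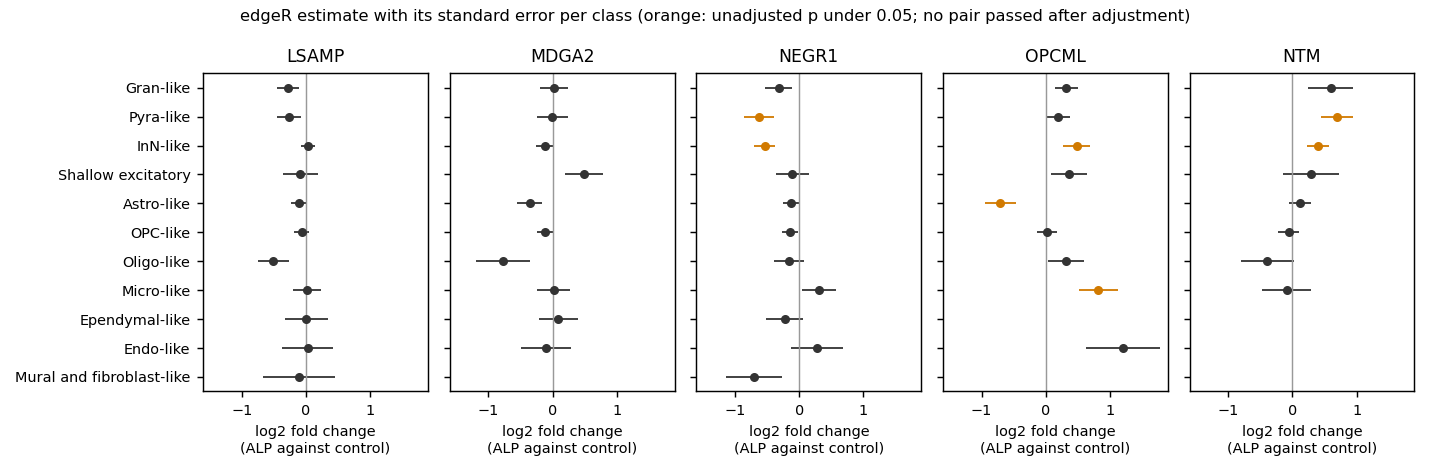
Log2 fold change of ALP against control TSs (x axis) with its standard error (line) from edgeR for 5 genes in 11 classes (y axis), with pairs of an unadjusted p under 0.05 in orange. Estimates of NEGR1 lie left of 0 in 9 of 11 classes and those of OPCML right of 0 in 8 of 9, and no pair passed after adjustment.

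NEGR1 had the smallest adjusted p of the family, in InN-like nuclei. There the TMM-scaled level, in CPM of the features tested, was 2176, 3059 and 2747 in Control 1, 2 and 3 and 1834, 2130 and 1537 in ALP 1, 2 and 3. All ALP libraries were below all control libraries, although ALP 2 and Control 1 were close. The log2 fold change was -0.54 with a standard error of 0.17, and the adjusted p of edgeR was 0.117 (unadjusted p = 0.00884). Leaving out Control 1 gave -0.65 and an adjusted p of 0.0451, which is a call. Over all features of InN-like nuclei 501 of 13069 were called without Control 1, against 0 of 11946 with all libraries.

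In Pyra-like nuclei the TMM-scaled NEGR1 level was 1550, 2660 and 2510 CPM in Control 1, 2 and 3 and 1309, 1629 and 1412 CPM in ALP 1, 2 and 3. Control 1 lay within the range of the ALP TSs on this scale, but above it in plain CPM (1643 CPM, against 1186, 1582 and 1170 CPM in ALP TSs), so that the overlap of the groups depended on the scaling. This gave a log2 fold change of -0.63 with a standard error of 0.24 (edgeR adjusted p = 0.244). In Gran-like nuclei, where NEGR1 is highest of the 11 classes, Control 1 alone stood out in the sum over the class. After TMM scaling it held 4802 CPM, against 2564 and 3209 CPM in Control 2 and 3 and 2907, 2575 and 3025 CPM in ALP TSs. The log2 fold change in Gran-like nuclei was -0.32 (edgeR adjusted p = 0.485). The Gran-like cluster highest in NEGR1 (4480 CPM) made up 27.9% of Gran-like nuclei in Control 1 and 1.45% to 9.004% in the other libraries. Its part in the Control 1 level was not tested. In the 2 Gran-like clusters with at least 10 nuclei in every library, weighted equally as given below, Control 1 did not stand out alone. It held 4410 CPM there, against 4193 CPM in Control 3. The Gran-like cluster highest in NEGR1 is not among these 2, so that this comparison leaves it out.

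The composition of Pyra-like nuclei differed between libraries, since 1 cluster made up 78.4% of them in Control 3 and 8.13% to 28.8% in the other libraries. NEGR1 was therefore also read within clusters. In CPM it was lower in the mean of ALP libraries in 16 of 16 clusters of granule, pyramidal and interneuron classes, and with TMM scaling in 15 of 16. The clusters share libraries, so that this is a description. A library entered a cluster mean with at least 10 nuclei. All libraries did so in 6 of 6 InN-like, 3 of 6 Pyra-like and 2 of 4 Gran-like clusters, and in the others a group mean rests on fewer libraries. In 1 Pyra-like cluster (306 nuclei, of which Control 1 and Control 3 held 1.31% and 0%) the control mean is that of Control 2 alone. In CPM 1.58% of 9733 genes were lower in all 16. With TMM scaling, where NEGR1 was not lower in all, 0.833% of 9842 genes were lower in all 16 and 5.70% in 14 or more. The largest gap was in the Pyra-like cluster led by CCN3 among the named genes, with 4562, 3029 and 4793 CPM in the controls and 1221, 1452 and 1223 CPM in ALP TSs, and the smallest in the KIT and LAMP5 interneurons, with 742, 836 and 650 against 883, 632 and 691 CPM. TMM scaling moved all genes of Pyra-like and InN-like nuclei up in ALP TSs by 0.22 and 0.16 on the log2 scale compared with plain CPM.

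With each cluster given equal weight, NEGR1 in InN-like nuclei was 2509 ± 352 CPM in the controls and 1620 ± 259 CPM in ALP TSs (n = 3 each), and in the 3 Pyra-like clusters with at least 10 nuclei in every library 2759 ± 241 and 1366 ± 130 CPM. Neither pair of groups overlapped, and the two-sided exact permutation test gave p = 0.1 for both, the smallest that 3 against 3 can give. For LSAMP in the same Pyra-like clusters the values were 1893 ± 58.2 and 1347 ± 127 CPM, likewise without overlap (exact permutation p = 0.1), whereas the sum over the class gave a log2 fold change of -0.26 (edgeR adjusted p = 0.539). Over all 6 Pyra-like clusters LSAMP was lower in ALP TSs in 4 and higher in 2. For NEGR1 the groups overlapped under equal weighting in the 2 Gran-like clusters with at least 10 nuclei in every library (exact permutation p = 0.4). The values there were 4410, 2213 and 4193 CPM in Control 1, 2 and 3 and 2723, 2345 and 2464 CPM in ALP 1, 2 and 3. In the 4 Oligo-like clusters the groups overlapped for NEGR1 as well (exact permutation p = 0.6). This weighting was chosen after seeing the data, and the share of all features without overlap under it was not computed.

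**Figure D4:**
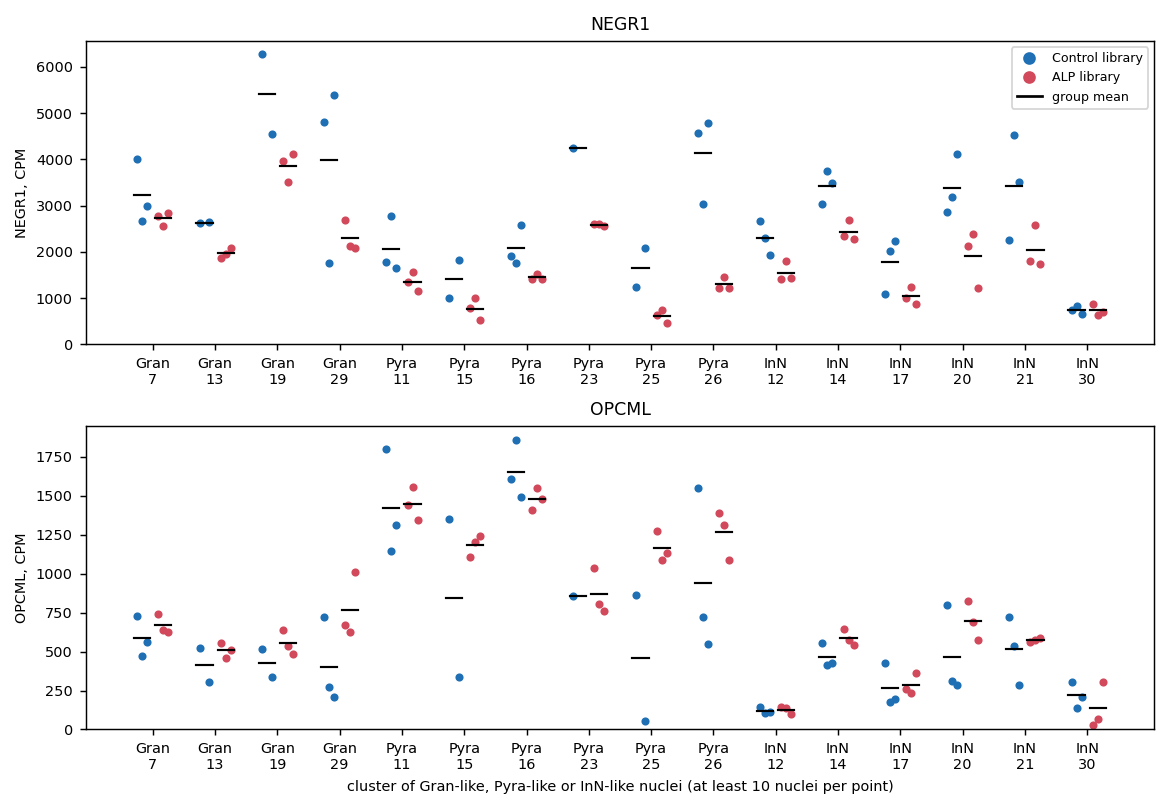
NEGR1 (top) and OPCML (bottom) in CPM (y axes from 0) in 16 clusters of the granule, pyramidal and interneuron classes (x axis), with 1 point per library with at least 10 nuclei and bars for group means. For NEGR1 the mean of ALP TSs is below that of control TSs in 16 of 16 clusters, with nearly equal means in the last, and for OPCML it is above in 14 of 16.

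OPCML was higher in ALP TSs in most neuron clusters, 14 of 16 in CPM and 15 of 16 with TMM scaling, beside 3.69% and 8.02% of genes that were higher in 14 or more. Group means again rest on fewer than 3 libraries in some of these clusters. In InN-like nuclei the TMM-scaled OPCML level was 432, 292 and 234 CPM in Control 1, 2 and 3 and 492, 424 and 418 CPM in ALP 1, 2 and 3. Control 1 lay among the ALP TSs, and Control 2 and 3 were below them. The log2 fold change was 0.48 with a standard error of 0.20 (edgeR adjusted p = 0.230). Without Control 1 it was 0.78 (edgeR adjusted p = 0.0351), beside 501 of 13069 features called in InN-like nuclei in that setting.

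NTM had the same tendency in those classes. In Pyra-like nuclei its TMM-scaled level was 137, 104 and 67.7 CPM in Control 1, 2 and 3 and 189, 172 and 144 CPM in ALP 1, 2 and 3. The groups did not overlap on this scale, but in plain CPM they did, with 145 CPM in Control 1 and 119.5 CPM in ALP 3. For NTM there the log2 fold change was 0.70 with a standard error of 0.25 (edgeR adjusted p = 0.228). In the 3 Pyra-like clusters with at least 10 nuclei in every library, weighted equally, the direction was the opposite. The values were 115 ± 23.0 CPM in the controls and 100.1 ± 8.53 CPM in ALP TSs (exact permutation p = 0.4). The Pyra-like cluster highest in NTM (250 CPM) is not among these 3. Over all 6 Pyra-like clusters NTM was lower in ALP TSs in 3 and higher in 3. The cluster that dominated Control 3 held 52.8 CPM of NTM on average. In InN-like nuclei the log2 fold change was 0.39 (edgeR adjusted p = 0.238), with Control 1 among the ALP TSs.

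In Astro-like nuclei OPCML, at a level that cannot be told apart from background, was after TMM scaling 45.3, 57.8 and 66.1 CPM in the controls and 35.9, 34.8 and 33.1 CPM in ALP TSs. All ALP libraries were lower, with a log2 fold change of -0.71 and a standard error of 0.24 (edgeR adjusted p = 0.157). The 6 neuron markers together were at 240 to 363 CPM in control and 201 to 249 CPM in ALP Astro-like nuclei, with 1 of 6 higher in ALP TSs and 1 at 0 in some library. Their part in the OPCML difference was not tested.

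In Micro-like nuclei the TMM-scaled OPCML level was 152, 230 and 85.4 CPM in Control 1, 2 and 3 and 283, 195 and 272 CPM in ALP 1, 2 and 3, with overlap through Control 2. The log2 fold change was 0.82 with a standard error of 0.30 (edgeR adjusted p = 0.241). Without Control 2 it was 1.03 (edgeR adjusted p = 0.0472), beside 307 of 7364 features called (37 of 6536 with all libraries). Without the upper limit on genes it turned to -0.20, but there the cluster led by CX021 and GPNMB was left out of the class as doublets. The GPNMB cluster, which held 269 of the OPCML UMIs, made up 6.53%, 20.5% and 4.05% of Micro-like nuclei in the controls and 16.3%, 12.5% and 17.7% in ALP TSs, and 6 of 6 neuron markers were higher in ALP TSs (1042 to 1184 CPM in sum in control and 1206 to 1238 CPM in ALP libraries). The part of either in the difference was not tested. In the other Micro-like cluster alone OPCML in plain CPM was 61.9, 50.05 and 69.7 CPM in the controls and 90.2, 85.3 and 82.2 CPM in ALP TSs.

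LSAMP and MDGA2 were chosen by the study on these same samples to mark subgroups of oligodendrocytes, so that their differences in Oligo-like nuclei are not independent evidence. In Oligo-like nuclei the TMM-scaled LSAMP level was 1392, 765 and 940 CPM in Control 1, 2 and 3 and 662, 875 and 649 CPM in ALP 1, 2 and 3. The groups overlapped through Control 2 and ALP 2, and the log2 fold change was -0.51 with a standard error of 0.24 (edgeR adjusted p = 0.247). LSAMP was the higher in Oligo-like clusters led by IL33 (1364 ± 375 CPM) and NINJ2 (1171 ± 380 CPM) and lower in those led by KLK6 (669 ± 91.0 CPM) and by ENPP6 and TNFAIP6 (411 ± 188 CPM). The KLK6 cluster made up 2.12%, 18.2% and 4.53% of Oligo-like nuclei in Control 1, 2 and 3 and 49.7%, 25.6% and 55.1% in ALP 1, 2 and 3, and LSAMP was lower in ALP TSs in 4 of 4 Oligo-like clusters, with an exact permutation p of 0.3 when they were weighted equally (1035 ± 213 and 773 ± 166 CPM, n = 3 each).

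MDGA2 had the reverse order over these clusters, with 955 ± 434 CPM in the ENPP6 and TNFAIP6 cluster and 380 ± 235 CPM in the IL33 cluster. Over all Oligo-like nuclei its TMM-scaled level was 890, 909 and 634 CPM in Control 1, 2 and 3 and 309, 888 and 222 CPM in ALP 1, 2 and 3. ALP 1 and ALP 3 were far below every other library, and ALP 2 was at the level of the controls. The log2 fold change was -0.77 with a standard error of 0.42 (edgeR adjusted p = 0.315), and it was -1.58 with an adjusted p of 0.00818 without ALP 2, so that this library decided the call. Without ALP 2 the calls over all features of Oligo-like nuclei also rose, from 559 of 11771 to 1084 of 13118. In the ENPP6 and TNFAIP6 cluster the same split was seen, with 504 and 393 CPM in ALP 1 and ALP 3 and 1192 CPM in ALP 2 (plain CPM).

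The split returned in Astro-like nuclei, where TMM-scaled MDGA2 was 1328, 1256 and 1302 CPM in the controls and 813, 1383 and 830 CPM in ALP 1, 2 and 3. It gave a log2 fold change of -0.36 (edgeR adjusted p = 0.386), or -0.65 with an adjusted p of 0.0543 without ALP 2. ALP 2 was 1 of the 3 libraries with Y-linked transcripts, and with a term for these libraries the MDGA2 log2 fold change was -0.64 in Oligo-like (adjusted p = 0.211) and -0.28 in Astro-like nuclei (adjusted p = 0.499). In OPC-like nuclei, where MDGA2 is highest, the TMM-scaled level was 1595, 1678 and 1521 CPM in ALP 1, 2 and 3 and 1915, 1662 and 1605 CPM in Control 1, 2 and 3, with no such split.

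**Figure D5:**
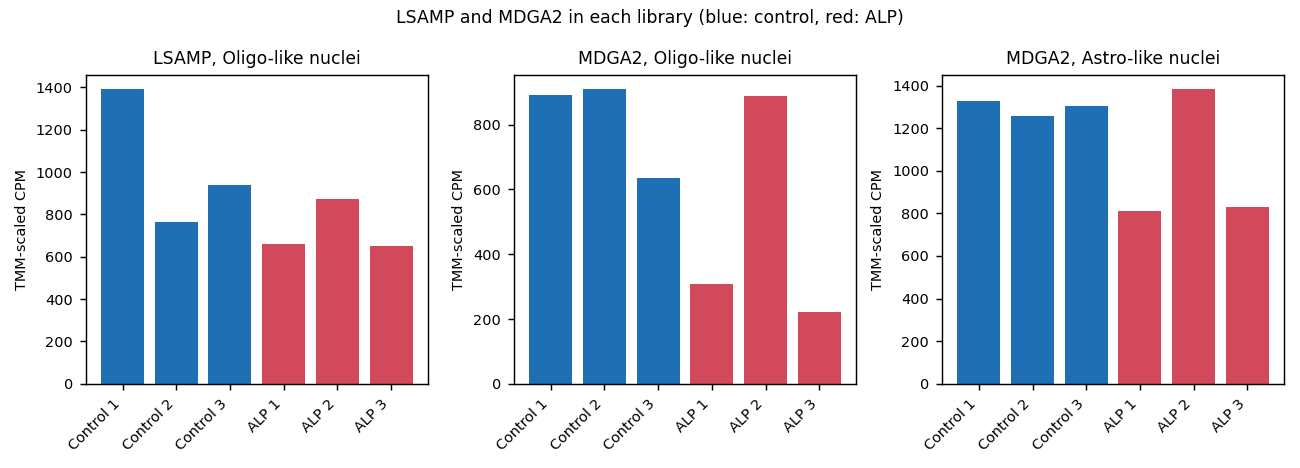
TMM-scaled level (y axes from 0, CPM of tested features) of LSAMP in Oligo-like and of MDGA2 in Oligo-like and Astro-like nuclei, with 1 bar per library in blue for control and red for ALP (x axis). MDGA2 is low in ALP 1 and ALP 3 (309 and 222 CPM in Oligo-like nuclei) and at the level of the controls in ALP 2 (888 CPM).

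In OPC-like nuclei none of the 5 members tested had an unadjusted p under 0.05 (edgeR), and their log2 fold changes lay between -0.14 and 0.02. MDGA1, with 44 UMIs there, was not tested. Its level was 9.97, 10.01 and 11.5 CPM in Control 1, 2 and 3 and 2.01, 6.94 and 2.94 CPM in ALP 1, 2 and 3. These values rest on a few UMIs per library, so that little can be read from them. MDGA1 had a log2 fold change of 0.39 with a standard error of 0.42 in Gran-like and of -0.0029 with 0.40 in Pyra-like nuclei (edgeR adjusted p = 0.703 and 0.999), which leaves a wide range of differences undetectable at its depth.

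Shares of nuclei at 1000 UMIs gave a similar picture. Of 53 gene and class pairs with at least 50 UMIs, 8 (15.1%) did not overlap between the groups, within the range of all features. Among all features 23.4% did not overlap in InN-like, 22.0% in Oligo-like, 21.6% in Astro-like, 20.2% in Pyra-like, 19.5% in Gran-like, 16.9% in Micro-like and 18.3% in OPC-like nuclei, and 11.96% in shallow excitatory, 11.7% in Ependymal-like, 10.9% in Endo-like and 9.4% in Mural and fibroblast-like nuclei. The 8 pairs included NEGR1 in InN-like nuclei (78.8% in control and 67.0% in ALP TSs) and Astro-like nuclei (74.4% and 67.6%), OPCML in Astro-like (5.04% and 3.12%) and Micro-like nuclei (8.997% and 16.5%) and LSAMP in Oligo-like (44.6% and 30.9%) and Micro-like nuclei (26.4% and 36.4%), and MDGA2 and NEGR1 in Mural and fibroblast-like nuclei, a class of 183 nuclei. For LSAMP in Micro-like nuclei, of which 953 of 1613 reached 1000 UMIs, the direction was the opposite at 500 UMIs (14.1% and 12.9%) and without thinning (31.5% and 28.7%), with overlap in both. The exact permutation p at 1000 UMIs was 0.1 for each of the 8, the smallest possible.

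Whether the ALP effect on a member differed between classes was tested in a fit over all classes, as the effect in 1 class against the mean of the others. Of 66 gene and class pairs 0 passed the edgeR test at an adjusted p under 0.05, and 7 had an unadjusted p under 0.05 (smallest adjusted p 0.190). Over all 15242 genes the percentage that passed was 0.315 in Pyra-like, 0.0787 in Astro-like, 0.0722 in Oligo-like and in Micro-like, 0.0459 in InN-like, 0.0328 in Gran-like, 0.0197 in Endo-like and in Mural and fibroblast-like, 0.0131 in OPC-like and 0.0 in Ependymal-like and shallow excitatory nuclei. Astro-like and Micro-like nuclei were not set against each other in this fit. The opposite signs of OPCML in them were therefore not tested as a difference between these classes.

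The partners of the family and the neuron markers were read from lists of 58 genes, of which 4 had no feature. Neurexins and neuroligins form the synaptic bridge on which MDGA proteins act. In 48 gene and class pairs of this list 0 passed with edgeR and 5 had an unadjusted p under 0.05. The log2 fold changes ran from -0.60 to 0.48 for NRXN2, from -1.45 to 0.54 for NRXN3, from -0.54 to 0.63 for NLGN1 and from -0.56 to 0.14 for NLGN4X, and NLGN2 (16 UMIs) and NLGN3 (53 UMIs) could not be tested. OPC-like nuclei, highest in MDGA2, were also highest in NLGN1 (3288 ± 261.3 CPM) and NLGN4X (1169 ± 327 CPM), whereas NRXN3 was highest in InN-like nuclei (5713 ± 769 CPM).

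Among 49 pairs of other neurexin ligands 1 was called higher and 1 lower, and 12 had an unadjusted p under 0.05 (edgeR). LRRTM3, a leucine-rich postsynaptic protein that binds neurexins, fell in Oligo-like nuclei from 680, 504 and 785 CPM in Control 1, 2 and 3 to 307, 305 and 235 CPM in ALP 1, 2 and 3. The groups did not overlap, the log2 fold change was -1.15 with a standard error of 0.20, and the adjusted p of edgeR was 0.0179, beside 4.75 percent of features called in that class. Unlike MDGA2, LRRTM3 was low in ALP 2 too. Leaving out Control 3, ALP 1 or ALP 3 ended the call (adjusted p 0.0889, 0.0930 and 0.146). CBLN4, which encodes a secreted cerebellin, was called higher in Micro-like nuclei, from 5, 5 and 0 UMIs in the controls and 35, 44 and 41 UMIs in ALP TSs (log2 fold change 3.65 with a standard error of 0.64, edgeR adjusted p = 0.0369), beside 0.566 percent of features called in that class. It was lost with DESeq2 (adjusted p = 0.732) and without Control 1, Control 3, ALP 1 or ALP 3 (edgeR adjusted p 0.110 to 0.215).

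GPI anchor assembly, on which surface display of all members depends, gave 1 call in 99 pairs, of which 8 had an unadjusted p under 0.05 (edgeR). PIGP, a subunit of the enzyme of the first step of anchor synthesis, rose in Oligo-like nuclei from 21.2, 20.02 and 24.7 CPM in the controls to 50.5, 38.4 and 50.5 CPM in ALP TSs. The groups did not overlap, and the log2 fold change was 1.14 with a standard error of 0.24 (edgeR adjusted p = 0.0246), beside 4.75 percent of features called in that class. Leaving out Control 1, Control 3, ALP 1 or ALP 3 ended the call (adjusted p 0.0670 to 0.147). The list of shedding enzymes and NEGR1 partners (ADAM10, ADAM17, FGFR2, NCAM1 and NPC2) gave 0 calls in 38 pairs with edgeR and 1 unadjusted p under 0.05, and the neuron markers gave 0 calls in 41 pairs and 4 unadjusted p under 0.05.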

How the data were processed

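Per the file headers and the labels, the authors deposited raw counts of UMIs per feature and barcode for 6 libraries, written by Cell Ranger (3.1.0 in the submitters' processing notes, 6.1.2 in the matrix headers) with the TreeshrewDB annotation. The genome build and the use of strand are not given in the sources used here, so that reads of antisense-named features cannot be told from those of the genes. Barcodes were filtered to 200 to 2500 genes and a mitochondrial share of 5% or less, scaled to 10000 UMIs, and clustered on 2000 variable genes without the 7 genes (30 components, 20 neighbours, resolution 2, scanpy 1.11.5, leidenalg 0.10.2). Each of the 38 clusters needed 3 or more markers at a fold of 1.5 or more for its name. Marked doublets were kept, and clusters with at least 15% of them stayed unnamed.

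Sums of UMIs over the nuclei of a class in each library (10 nuclei or more) were tested with edgeR 4.0.16 (quasi-likelihood, TMM, minimum count 10, Benjamini-Hochberg over all features of the class) in R 4.3.3, with DESeq2 1.42.0 as an alternative. TMM-scaled CPM count only the features tested, and other CPM count all. Class orders were compared on log2(CPM + 1). On simulated counts for InN-like nuclei with 200 changed genes among 11455, 84.3% of 4-fold and 39.8% of 2-fold changes were recovered with 2 false calls, and in Pyra-like nuclei 65.5% and 10.3%. p-values measure the spread between 3 libraries per group. Libraries differed by far more than sampling noise (chi-square per gene at least 15.0).

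All 7 members were named in every class, together with the neurexins and neuroligins, each listed partner gene that was called, and the 3 most similar genes of each member with at least 100 UMIs. Some genes that this rule names are not reported here. Clusters and libraries that illustrate a pattern were picked after their values were seen. The members, the gene lists and the tests were chosen with earlier results of these data known. Subclusters, communication and trajectories of the study were not analysed here.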

Additional observations from a re-analysis of the deposited data

How the results depend on the processing

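Of the results followed through the alternatives (DESeq2, its size factors, no filter on low counts, a replicate block, each library left out, no upper limit on genes, marked doublets left out, members kept for clustering, resolution 1, another pseudocount, TMM scaling, another thinning and, added after seeing the data, Y-linked transcripts as a covariate), 95 values that answer a comparison stayed, 12 moved and 3 reversed. Without a filter on low counts 3 of 72 member pairs were called in place of 0 of 51, and 7 partner pairs in place of 3. The member pairs were OPCML and NEGR1 in InN-like and NTM in Pyra-like nuclei. Beside them, 1449 of 41122 features were called in InN-like and 926 of 41170 in Pyra-like nuclei without the filter. Leaving out 1 library gave 0 to 2 member pairs (2 without Control 1, 1 without Control 2 or ALP 2) and 0 to 4 partner pairs (0 without Control 3, ALP 1 or ALP 3). Shares of nuclei that did not overlap fell from 8 pairs to 5 at 500 UMIs and numbered 10 to 19 with 1 library left out. A lack of overlap is easier to reach with 2 libraries against 3, so that the rise is no sign of a larger difference. The share of all features was not computed in these settings. The order of NTM between OPC-like and Astro-like nuclei (0.02) reversed with TMM scaling (-0.067), and with 1 library left out it ran from -0.053 to 0.063 (-0.053 without Control 3, -0.014 without ALP 2). OPCML in Micro-like nuclei reversed without the upper limit on genes (-0.20), where the cluster led by CX021 and GPNMB stayed unnamed. No order of OPCML was computed in that setting, because no cluster of shallow excitatory nuclei was found. The replicate numbers do not pair the samples, since only 1 of 33 correlations of same-numbered libraries was over 0.1 (-0.21 to 0.15), and a replicate block gave 0 member calls (8 unadjusted p under 0.05) and ended the call of CBLN4 (adjusted p = 0.219). Over all features the calls in Oligo-like nuclei were 559, with 1423 without a filter and 1 to 1084 with 1 library left out (1 without Control 3 or ALP 1, 2 without ALP 3, 1084 without ALP 2). Calls in InN-like nuclei were 0, with 470 by DESeq2, 1449 without a filter, 423 without the upper limit, 303 with the Y-linked covariate, 122 at resolution 1, 59 without marked doublets and 0 to 501 with 1 library left out. In Pyra-like nuclei they were 0, with 221 by DESeq2, 926 without a filter and 197 without Control 1, and in Astro-like nuclei 14, with 216 by DESeq2, 711 without a filter and 2 to 222 with 1 library left out. In Gran-like nuclei they were 132, with 223 by DESeq2, 786 without a filter, 629 without the upper limit, 0 with the block and 0 to 416 with 1 library left out, and in Micro-like nuclei 37, with 236 without a filter, 0 with the block and 0 to 307 with 1 library left out. Those in OPC-like nuclei were 145, with 546 without a filter, 1 with the block, 233 with the Y-linked covariate, 85 without marked doublets and 0 to 414 with 1 library left out. The cause of these changes was not tested. Depth limits MDGA1 and IGLON5 most.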

Other observations

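Features named as antisense to the members were counted as well. The 7 antisense features of LSAMP held 2029 UMIs (273 CPM) in Astro-like, 1082 (181 CPM) in OPC-like and 606 (41.9 CPM) in Oligo-like nuclei. The 8 antisense features of NEGR1 held 1392 UMIs (138 CPM) in Gran-like and 362 (50.9 CPM) in Astro-like nuclei. In both cases the highest class was that of the gene itself, and since the use of strand in counting is not stated, these counts cannot be told apart from those of the genes. The 2 antisense features of OPCML held 106 UMIs over all kept nuclei, and those of IGLON5 and MDGA1 held 18 each.

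Much of the family's signal lay in barcodes that the upper limit on genes leaves out. Over 6 libraries these held 78.3% of OPCML UMIs, 75.8% of MDGA1 UMIs and 64.5% of NEGR1 UMIs, beside 60.4% of all UMIs, and 57.6% to 60.9% of those of LSAMP, NTM, IGLON5 and MDGA2. With these barcodes kept, OPCML in Pyra-like nuclei was 1705 ± 119 CPM (1306 ± 142 CPM with the limit) and MDGA1 was 23.3 ± 3.63 CPM (17.8 ± 7.05 CPM).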
